A study of Mus musculus with 12 samples.

Results

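The 8 genes described here mark 2 kinds of hippocampal neuron, the pyramidal cell and the granule cell of the dentate gyrus. They are Fibcd1, C1ql2, C1ql3, Prox1, Dsp, Spink8, Neurod6 and Cpne7, and they make up 8 of the 21643 rows of the deposited table of read counts. They were picked by name from earlier results of the same libraries, in which the blocker groups had been set against PBS and against Control. Their values in those contrasts are therefore a description and carry no p-value. All 8 passed the filter on low counts, which kept 15061 genes, and none was at 0 in any library.

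RNA was sequenced from the brains of 12 mice, 3 in each of the groups ShK-223, PAP-1, PBS and Control. Every group, Control included, is labelled 5xFAD, a transgenic strain of amyloid pathology whose transgenes are driven by the Thy1 promoter, which is active mainly in neurons. Both ShK-223, a peptide modelled on a toxin of sea anemones, and the small molecule PAP-1 block the potassium channel Kv1.3. PBS is phosphate-buffered saline. No source used here gives the doses, the times, the ages or what sets Control apart from PBS.

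The hippocampus relays signals along a chain of excitatory neurons. Granule cells of the dentate gyrus receive input from the entorhinal cortex and send mossy fibres to the pyramidal cells of CA3, which in turn drive those of CA1. Granule and pyramidal cells are born from different progenitors and keep different transcription factors into adult life, Prox1 in the granule cells and Neurod6 in the pyramidal cells. The other genes work at the synapse, at the cell surface or at cell contacts, as described with each below.

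The labels call every library whole brain, yet markers of single brain regions differed widely between libraries. The summed level of 10 cerebellar markers was 26.7 to 34.2 CPM, the count scaled to a common library size, in ShK-223. It was 693 CPM in PAP-1 1, with 26.9 and 29.3 CPM in PAP-1 2 and 3. All 3 PBS libraries held 3912 to 4193 CPM, and Control held 3592 CPM in Control 2 with 48.0 and 26.0 CPM in Control 1 and 3. None of the 10 markers was at 0 throughout a group. The sum of 10 striatal markers was highest in Control 1, Control 3 and ShK-223 2, at 1723, 1375 and 1284 CPM, and lay between 181 and 651 CPM in the other libraries. Library totals ran from 14364013 to 19048551 counts. Treatment and cerebellar content cannot be told apart between either blocker and PBS, and in tissue RNA fewer cells of a type cannot be told apart from less RNA per cell. Fold changes against Control are therefore given with Control 2 and without it. Leaving it out keeps Control 1 and 3, which held the most striatal transcript. All PAP-1 libraries, at 181 to 236 CPM of striatal markers, lay below all Control libraries, at 254 to 1723 CPM. Between PAP-1 and Control, treatment and striatal content thus cannot be told apart, with Control 2 or without it.

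The genes sit apart in the genome, and the sequences just before their start sites are shown for 4 of them as a description only. RefSeq gave start sites for 6 of the 8 genes on GRCm38, and each line holds the 250 bases before the first transcribed base, read 5′ to 3′ on the gene's own strand. Capitals mark E-boxes (CANNTG), the letters bound by basic helix-loop-helix factors such as Neurod6, and a TATAAA motif on either strand.
C1ql2: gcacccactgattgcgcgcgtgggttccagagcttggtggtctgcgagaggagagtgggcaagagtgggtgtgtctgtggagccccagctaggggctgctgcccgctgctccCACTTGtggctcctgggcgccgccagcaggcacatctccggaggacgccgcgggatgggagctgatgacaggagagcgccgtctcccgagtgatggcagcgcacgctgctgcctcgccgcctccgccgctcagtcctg
Prox1: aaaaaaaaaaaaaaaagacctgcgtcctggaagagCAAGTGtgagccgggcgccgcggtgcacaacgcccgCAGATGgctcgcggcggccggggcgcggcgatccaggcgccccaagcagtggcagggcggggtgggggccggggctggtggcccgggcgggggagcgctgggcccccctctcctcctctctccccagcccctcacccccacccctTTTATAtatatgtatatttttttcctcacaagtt
Fibcd1: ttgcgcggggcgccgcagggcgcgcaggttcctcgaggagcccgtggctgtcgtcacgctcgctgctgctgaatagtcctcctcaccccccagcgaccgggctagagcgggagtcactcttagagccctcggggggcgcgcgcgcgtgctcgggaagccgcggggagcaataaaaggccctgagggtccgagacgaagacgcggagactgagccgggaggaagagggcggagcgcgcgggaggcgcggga
Neurod6: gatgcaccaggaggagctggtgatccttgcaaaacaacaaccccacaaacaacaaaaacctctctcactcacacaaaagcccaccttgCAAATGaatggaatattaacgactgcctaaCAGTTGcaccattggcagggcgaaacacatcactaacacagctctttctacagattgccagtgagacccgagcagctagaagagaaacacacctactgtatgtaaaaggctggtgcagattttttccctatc

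These are chr1:120340332-120340581 on the plus strand for C1ql2, chr1:190170828-190171077 on the minus strand for Prox1, chr2:31846006-31846255 on the minus strand for Fibcd1 and chr6:55681264-55681513 on the minus strand for Neurod6. C1ql2 holds the E-box CACTTG 138 bases before its start, and its relative C1ql3, not printed, holds the same letters 230 bases before its own. Prox1 holds CAAGTG, which is CACTTG on the other strand, 215 bases before its start, CAGATG at 179 and TTTATA, the TATAAA motif on the other strand, at 34. Neurod6 holds CAAATG at 162 bases and CAGTTG at 132, and the Fibcd1 and Dsp windows hold no E-box and no TATAAA. A second RefSeq start of Prox1 holds none either, and for neither start were the first transcribed bases found in a GENCODE transcript of the gene. Such letters are common. On either strand, CACTTG lies in 11.6% of 32851 RefSeq windows of this length, CAGATG in 14.4%, TATAAA in 12.4% and CANNTG, which includes the first 2, in 66.2%. The search for CANNTG and CACTTG was added after the sequences were seen. The windows differ more in composition. G and C made up 71.6% of the Fibcd1 window, 68.8% of that of C1ql2, 64.8% of that of Prox1 and 46.0% of that of Neurod6, against a median of 52.4% over all windows.

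C1ql2 encodes a secreted C1q-like protein that granule cells release at mossy fibre synapses, where it helps to gather kainate receptors. The gene lies at chr1:120340582-120343174 on the plus strand. Its level was 24.2, 2.74 and 13.4 CPM in ShK-223 libraries 1, 2 and 3, and 20.4, 15.8 and 24.7 CPM in PAP-1. In PBS it was 0.612, 1.51 and 0.983 CPM, and in Control 1.75, 2.03 and 0.784 CPM. Every blocker library lay above every PBS and Control library, and ShK-223 2 stood far below the other 5 blocker libraries. The counts behind the lowest values were small, 10 to 35 reads in each of the PBS and Control libraries. The log2 fold change against Control was 3.14 with a standard error (SE) of 0.68 for ShK-223 and 3.74 (SE 0.69) for PAP-1. Without Control 2 the same values were 3.42 (SE 0.83) and 4.01 (SE 0.84).

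C1ql3, a second C1q-like synaptic organiser, is also made by neurons outside the hippocampus and lies at chr2:13003457-13011806 on the minus strand. Its level was 34.7, 16.6 and 20.4 CPM in ShK-223, 41.8, 27.3 and 35.9 CPM in PAP-1, 7.59, 3.17 and 5.16 CPM in PBS, and 18.7, 12.6 and 20.6 CPM in Control. Here Control lay near ShK-223, with overlapping libraries, and the PBS libraries alone were low. The log2 fold change against Control was 0.46 (SE 0.34) for ShK-223 and 1.01 (SE 0.34) for PAP-1, and without Control 2 it was 0.28 (SE 0.36) and 0.83 (SE 0.36). The transcripts of C1ql2 and C1ql3 align over 791 bases with 77.1% identity, and the longest run they share exactly is 38 bases. Reads within such a run could be assigned to either gene. Antisense models share 1627 exon bases with C1ql3, and no source used here gives the strand setting of the counting.

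Prox1 encodes the homeobox factor that gives granule cells their identity, and is present in some interneurons and in lymphatic vessels too. It lies at chr1:190118035-190170714 on the minus strand. Its level was 24.0, 27.3 and 35.4 CPM in ShK-223, 21.3, 31.2 and 24.4 CPM in PAP-1, 54.2, 71.5 and 61.1 CPM in PBS, and 20.0, 56.5 and 23.5 CPM in Control. The 4 libraries with the most Prox1 were the 3 of PBS and Control 2, which are the 4 with the most cerebellar transcript. The part of cerebellar tissue in the Prox1 level was not tested. Against Control the log2 fold change was -0.21 (SE 0.34) for ShK-223 and -0.38 (SE 0.34) for PAP-1, and without Control 2 its sign turned, to 0.41 (SE 0.20) and 0.24 (SE 0.20).

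Dsp encodes desmoplakin, which ties desmosomes to intermediate filaments and marks granule cells in the mouse hippocampus. It lies at chr13:38151294-38198577 on the plus strand. Its level was 6.06, 6.04 and 4.12 CPM in ShK-223, 21.9, 10.6 and 1.96 CPM in PAP-1, 0.796, 2.20 and 2.95 CPM in PBS, and 0.843, 2.21 and 2.24 CPM in Control. PAP-1 3 lay within the range of the PBS and Control libraries, while the other 5 blocker libraries lay above that range. Against Control its log2 fold change was 1.61 (SE 0.74) for ShK-223 and 2.69 (SE 0.76) for PAP-1, and 1.82 for PAP-1 when PAP-1 1 was left out. Without Control 2 it was 1.79 (SE 0.89) for ShK-223 and 2.87 (SE 0.91) for PAP-1. Choroid plexus and meninges also contain Dsp. The summed level of 6 choroid plexus markers was 34.7, 1318 and 394 CPM in ShK-223, 525, 14.3 and 79.3 CPM in PAP-1, 39.5, 565 and 1249 CPM in PBS, and 28.3, 55.5 and 677 CPM in Control. The sum of 10 markers of meninges and vessels was 213, 105 and 86.5 CPM in ShK-223, 176, 117 and 145 CPM in PAP-1, 132 to 155 CPM in PBS and 103 to 171 CPM in Control. The part of these tissues in the Dsp level was not tested.

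**Figure D1:**
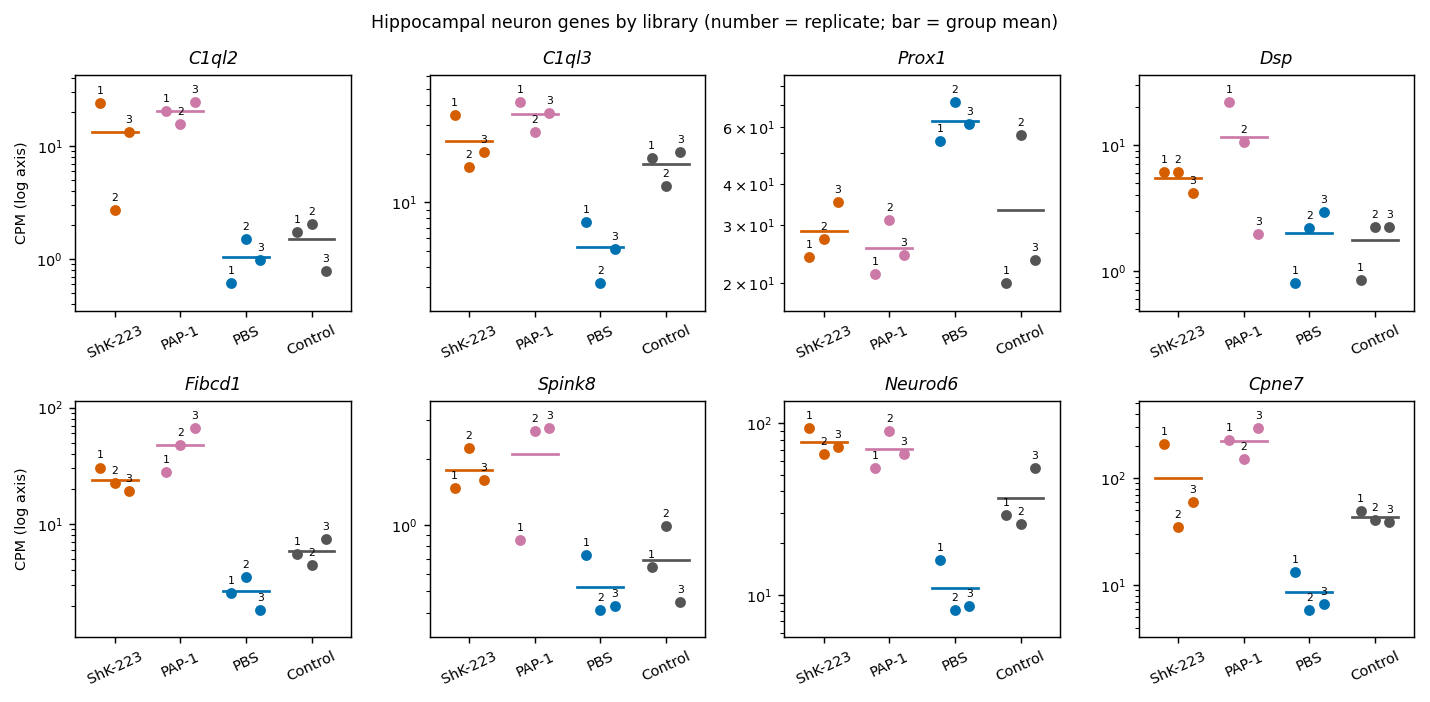
Level of each of the 8 genes in every library, in CPM on a log axis, one panel a gene, with groups along the horizontal axis, library numbers as points and the group mean as a bar. C1ql2 and Fibcd1 lie higher in all 6 blocker libraries than in any PBS or Control library, and Prox1 is highest in the 3 PBS libraries and Control 2.

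Fibcd1 encodes a cell-surface receptor for acetylated compounds such as chitin, and in the hippocampus it marks CA1 pyramidal cells. It lies at chr2:31813290-31846005 on the minus strand. Its level was 30.6, 22.3 and 19.2 CPM in ShK-223, 27.8, 48.0 and 66.7 CPM in PAP-1, 2.57, 3.51 and 1.84 CPM in PBS, and 5.58, 4.47 and 7.50 CPM in Control. As for C1ql2, all 6 blocker libraries lay above all 6 others, and the lowest of them, at 19.2 CPM, stood well clear of the highest Control library. At least 30 reads lay behind each value. The log2 fold change against Control was 2.04 (SE 0.34) for ShK-223 and 3.02 (SE 0.35) for PAP-1, and without Control 2 it was 1.87 (SE 0.38) and 2.86 (SE 0.40).

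Spink8, a Kazal-type inhibitor of serine proteases found in hippocampal pyramidal cells, lies at chr9:109812280-109826633 on the plus strand. Only 6 to 48 reads a library came from this short transcript. Its level was 1.47, 2.24 and 1.61 CPM in ShK-223, 0.854, 2.69 and 2.76 CPM in PAP-1, 0.735, 0.413 and 0.430 CPM in PBS, and 0.648, 0.988 and 0.448 CPM in Control. PAP-1 1 lay below Control 2, and the other 5 blocker libraries lay above all PBS and Control libraries. Against Control its log2 fold change was 1.34 (SE 0.47) for ShK-223 and 1.59 (SE 0.47) for PAP-1, and without Control 2 it was 1.69 (SE 0.54) and 1.94 (SE 0.54).

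Neurod6 encodes a helix-loop-helix factor of pyramidal neurons of the cortex as well as the hippocampus, and lies at chr6:55677822-55681263 on the minus strand. Its level was 93.4, 65.5 and 72.4 CPM in ShK-223, 54.5, 90.1 and 66.2 CPM in PAP-1, 16.0, 8.19 and 8.61 CPM in PBS, and 29.0, 25.7 and 54.4 CPM in Control. Control 3, at 54.4 CPM, lay just under PAP-1 1, and the 3 PBS libraries were the lowest. The log2 fold change against Control was 1.08 (SE 0.33) for ShK-223 and 0.95 (SE 0.33) for PAP-1, and without Control 2 it was 0.88 (SE 0.35) and 0.75 (SE 0.35).

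Cpne7 encodes a copine, a protein that binds membrane phospholipids when calcium rises. It lies at chr8:123117374-123135182 on the plus strand. Its level was 208, 34.6 and 60.1 CPM in ShK-223, 229.7, 150.4 and 294 CPM in PAP-1, 13.2, 5.92 and 6.64 CPM in PBS, and 49.8, 41.1 and 39.4 CPM in Control. ShK-223 2 lay below every Control library, and ShK-223 1 alone lay in the range of PAP-1. The log2 fold change of ShK-223 against Control was 1.22 (SE 0.56), and 0.13 when ShK-223 1 was left out. For PAP-1 it was 2.37 (SE 0.58), and it ran from 2.13 to 2.59 when each PAP-1 library was left out in turn. Without Control 2 it was 1.18 (SE 0.66) for ShK-223 and 2.33 (SE 0.70) for PAP-1.

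ShK-223 2 was the lowest ShK-223 library for C1ql2, C1ql3, Neurod6 and Cpne7, but not throughout: its levels of Fibcd1, Dsp and Prox1 lay between those of ShK-223 1 and 3, and its Spink8 level was above both. The ratio of C1ql2 to Fibcd1 levels was 0.791, 0.123 and 0.696 in ShK-223, 0.733, 0.329 and 0.370 in PAP-1, 0.238, 0.431 and 0.533 in PBS, and 0.314, 0.455 and 0.104 in Control. All 4 groups overlap in this ratio of a dentate to a CA1 gene. ShK-223 2 was also the library with the most striatal transcript outside Control, at 1284 CPM, and the most choroid plexus transcript. The part of either tissue in its C1ql2 level was not tested.

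**Figure D2:**
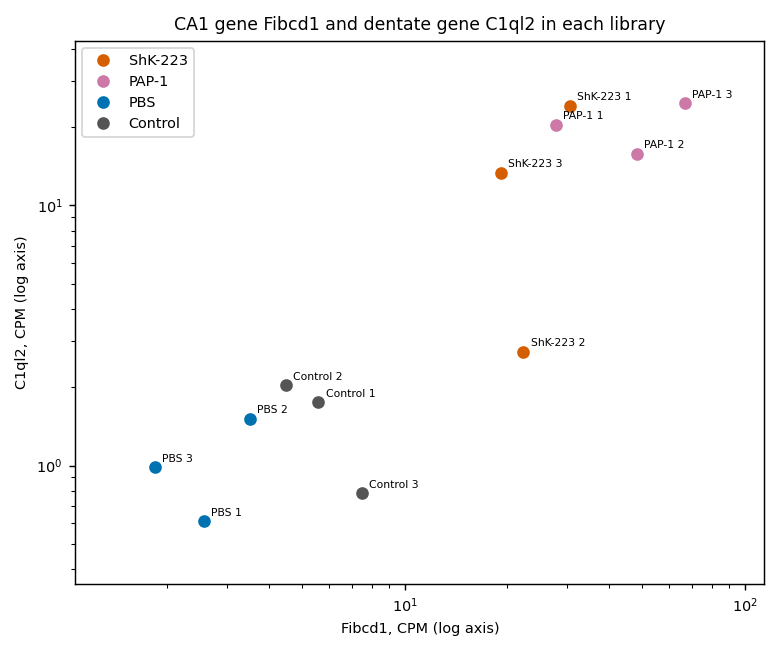
C1ql2 level against Fibcd1 level in the 12 libraries, both in CPM on log axes, coloured by group. The 6 blocker libraries lie to the upper right of the 6 PBS and Control libraries, with ShK-223 2 low for C1ql2 at 2.74 CPM.

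A gene passed the test in a comparison when its adjusted p in edgeR's quasi-likelihood test was at most 0.05. Against PBS, 6 of the 8 genes passed as higher and 1, Prox1, as lower for ShK-223, where 18.8% of all genes tested were higher and 20.3% lower. For PAP-1, 7 passed as higher and Prox1 as lower, where 21.1% of all genes were higher and 22.6% lower. Against PBS the log2 fold change of the granule cell genes was 3.70 (SE 0.71) for C1ql2, 2.16 (SE 0.36) for C1ql3, -1.11 (SE 0.34) for Prox1 and 1.45 (SE 0.74) for Dsp with ShK-223. Dsp was the gene that did not pass with ShK-223. With PAP-1 the same 4 genes had 4.29 (SE 0.72), 2.71 (SE 0.37), -1.28 (SE 0.35) and 2.53 (SE 0.75). The pyramidal genes Fibcd1, Spink8 and Neurod6 had 3.19 (SE 0.37), 1.73 (SE 0.49) and 2.82 (SE 0.36) with ShK-223, and 4.17 (SE 0.38), 1.98 (SE 0.49) and 2.68 (SE 0.36) with PAP-1. Cpne7 had the widest gap between the 2 blockers, at 4.71 (SE 0.66) with PAP-1 and 3.55 (SE 0.63) with ShK-223. With a batch term in the fit none of the 8 passed for ShK-223 against PBS, where only 4 of all genes did. The median log2 fold change of the 8 was 2.49 for ShK-223 and 2.698 for PAP-1, against -0.01 over all genes in both. PBS was the group with cerebellar transcript in all its libraries, and the rule used these contrasts, so nothing is read from the counts. The PBS libraries were low for most of these genes: for C1ql3, Fibcd1, Neurod6 and Cpne7 all 3 lay below all 3 Control libraries, as they did for 15.8% of all genes.

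Against Control, none of the 8 genes passed in edgeR for either blocker, where 0.0% of all genes did. At an unadjusted p under 0.05, 4 of the 8 were higher with ShK-223, where 2.5% of all genes were higher, and 7 with PAP-1, where 6.78% were. DESeq2 called C1ql2 and Fibcd1 for ShK-223, among 9 genes in all (0.0483% of those it tested). For PAP-1 it called C1ql2, Dsp, Fibcd1 and Cpne7, among 378 genes (2.58%). The groups did not overlap for 5 genes with ShK-223, namely C1ql2, Dsp, Fibcd1, Spink8 and Neurod6, all higher, where 5.25% of all genes were higher without overlap. With PAP-1 the 5 were C1ql2, C1ql3, Fibcd1, Neurod6 and Cpne7, where 9.06% of all genes were. Without Control 2 the number was 6 for ShK-223, with Prox1 added, where 12.1% of all genes were higher without overlap. For PAP-1 it was also 6, with Spink8 added, where 17.1% of all genes were. The median log2 fold change of the 8 was 1.28 for ShK-223 and 1.98 for PAP-1, against -0.02 and -0.03 over all genes. The summed level of 6 oligodendrocyte markers was 2948, 5826 and 5240.0 CPM in ShK-223, 1813, 3586 and 2040.4 CPM in PAP-1, 3813 to 7168 CPM in PBS and 4225 to 5878 CPM in Control. In PAP-1 all 6 markers lay below Control without overlap, with a median log2 fold change of -1.02, and their part in the differences above was not tested. Both comparisons share the Control libraries, and the genes were chosen with them in view, so nothing is read from these counts.

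**Figure D3:**
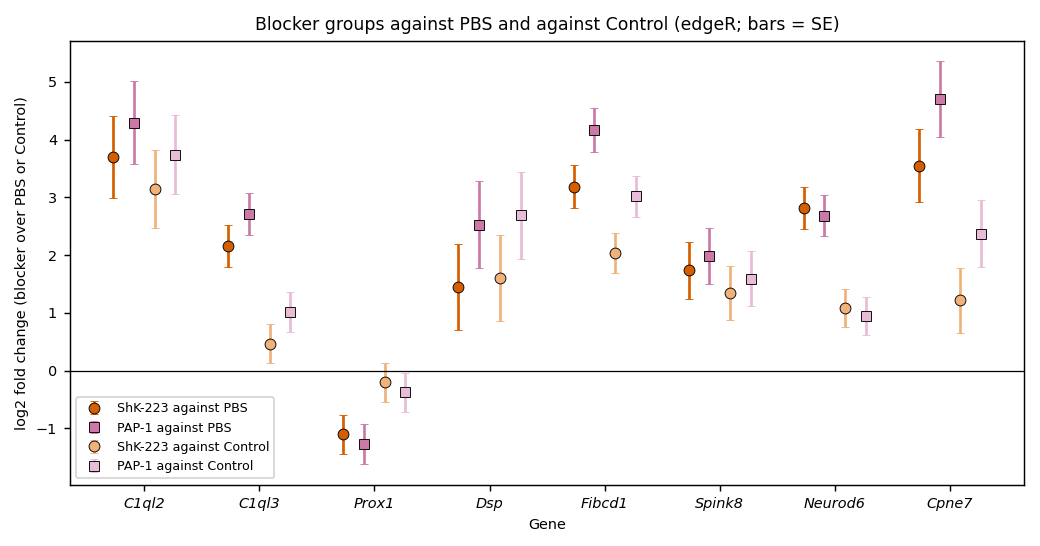
Log2 fold change of the 8 genes for each blocker against PBS and against Control, with SE as bars. C1ql2 and Fibcd1 lie above 2 in all 4 comparisons, C1ql3 and Neurod6 lie nearer to 0 against Control than against PBS, and Prox1 lies below 0 in all 4, though above 0 against Control once Control 2 is left out.

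Each library also has a batch name in the labels (B, C or CH), with no account of what it stands for. Within batch CH, 2 ShK-223 libraries against Control 3 gave log2 ratios above 0 for all 8 genes, with 4.58 for C1ql2 and 1.73 for Fibcd1. Within batch B, ShK-223 2 against Control 1 gave 6 above 0 and 2 below, with 0.65 for C1ql2, 2.00 for Fibcd1 and -0.52 for Cpne7. For PAP-1 in batch B, 2 libraries against Control 1 gave 8 above 0, with 3.69 for C1ql2 and 3.08 for Fibcd1. PAP-1 2 against Control 2 in batch C gave 7 above 0, with 2.96 for C1ql2, 3.42 for Fibcd1 and -0.86 for Prox1. Fibcd1 was thus at 1.73 and 2.00 with ShK-223 and at 3.08 and 3.42 with PAP-1. C1ql2 was at 4.58 and 0.65 with ShK-223 and at 3.69 and 2.96 with PAP-1. Each ratio rests on 1 or 2 blocker libraries and a single Control library, so spread between batches is not measured. The share of all genes above 0 in each batch is not given here, so nothing is read from the counts. In batch CH, Control 3 held 1375 CPM of striatal markers, against 197 and 651 CPM in ShK-223 1 and 3. In batch B, Control 1 held 1723 CPM, against 1284 CPM in ShK-223 2 and 220 and 236 CPM in PAP-1 1 and 3. The part of striatal tissue in these ratios was not tested.

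The 2 blockers were compared with each other, a contrast that the choice of genes did not name, though it shares its libraries with those that were. None of the 8 genes passed in edgeR, where 0.0% of all genes did, and the groups overlapped for all 8, where 5.66% of all genes were higher and 4.96% lower without overlap. DESeq2 called none of the 8, and 5 genes in all (0.0268%). At an unadjusted p under 0.05 there was 1, Fibcd1, where 4.54% of all genes were. Fibcd1 averaged 47.5 ± 19.4 CPM in PAP-1 and 24.0 ± 5.86 CPM in ShK-223 (SD, n = 3 each), with a log2 fold change of 0.98 (95% interval 0.27 to 1.70) and an adjusted p of 0.984 in edgeR. Cpne7 averaged 224.7 ± 71.9 CPM in PAP-1 and 100.8 ± 93.4 CPM in ShK-223, with a log2 fold change of 1.16 (95% interval -0.08 to 2.40). For C1ql2 the difference was 0.60 (95% interval -0.71 to 1.90) and for Dsp 1.08 (-0.47 to 2.63). For Prox1 it was -0.17 (-0.93 to 0.59) and for Neurod6 -0.13 (-0.86 to 0.59). These intervals take in differences of more than 1.5-fold in at least one direction for every one of these genes, so the 2 compounds are not shown to act alike.

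PBS was set against Control in the same fit. The genes were chosen from contrasts with both groups, so these values too are a description with no p. Neurod6 averaged 10.9 ± 4.38 CPM in PBS and 36.4 ± 15.7 CPM in Control (SD, n = 3 each), a log2 fold change of -1.73 (SE 0.35). C1ql3 averaged 5.31 ± 2.22 CPM in PBS and 17.3 ± 4.18 CPM in Control, a log2 fold change of -1.70 (SE 0.36). These were the 2 of the 8 that passed, both lower, where 4.61% of all genes were lower and 0.412% higher. Neither passed with a batch term in the fit, where only 2 of all genes did, nor in a fit of PBS and Control alone. Cpne7, at 8.57 ± 3.99 CPM in PBS and 43.4 ± 5.60 CPM in Control, missed the threshold, with a log2 fold change of -2.34 (SE 0.60). Fibcd1 had -1.15 (SE 0.37). C1ql2 averaged 1.04 ± 0.453 CPM in PBS and 1.52 ± 0.655 CPM in Control, with overlapping libraries.

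Between PBS and Control, the number of the 8 genes passing ran from 0 to 5 with single libraries left out. Without Control 2 it was 5: Prox1 was higher in PBS by 1.52, and C1ql3, Fibcd1, Neurod6 and Cpne7 were lower, by log2 fold changes of -1.88, -1.31, -1.93 and -2.37. Of all genes, 22.7% were then higher and 21.2% lower. In batch C, PBS 1 and 3 against Control 2, all with cerebellar transcript, gave -1.07 for Neurod6, -0.98 for C1ql3 and 0.03 for Prox1. In batch CH, PBS 2 against Control 3, of which only PBS 2 has much of it, gave -2.73 for Neurod6, -2.70 for C1ql3 and 1.60 for Prox1. The part of cerebellar tissue in these differences was not tested.

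The 8 genes were set beside lists of other hippocampal markers, drawn up by cell type with earlier results of these data known. Of 12 further granule cell markers, 6 were higher and 4 lower with ShK-223 against PBS, and 7 higher and 3 lower with PAP-1. The shares over all genes, to be read beside these counts and those of the lists that follow, were 18.8% higher and 20.3% lower with ShK-223 and 21.1% higher and 22.6% lower with PAP-1. Those lower included Il16, an interleukin precursor, at 3.44 to 5.15 CPM in ShK-223 and 124 to 144 CPM in PBS, and Il16 was also high, at 115 CPM, in Control 2. Rasl10a, a small GTPase, was higher by 2.57 (SE 0.78) with ShK-223 and by 2.80 (SE 0.79) with PAP-1. Of 8 CA1 markers, 5 were higher with ShK-223 and 7 with PAP-1, and none lower, among them Mpped1, at 2.80 (SE 0.47) and 2.94 (SE 0.47). Of 13 markers of CA2, CA3 and mossy cells, 6 were higher and 1 lower with ShK-223 and 5 higher and 1 lower with PAP-1, with Rgs14, a signalling regulator of CA2 neurons, at 2.66 and 2.89. Rises against PBS were not confined to hippocampal lists. Of 10 cortical markers, 7 were higher and 1 lower with ShK-223, and 6 higher and 1 lower with PAP-1. Of 9 interneuron markers, 5 were higher and 2 lower with either blocker. Of 6 microglial markers, 6 were higher with ShK-223 and 3 with PAP-1, and none lower. None of 10 striatal markers passed, and of 10 cerebellar markers 10 were lower with ShK-223 and 4 with PAP-1. Against Control none of the 33 hippocampal markers passed in edgeR for either blocker. At an unadjusted p under 0.05, the granule cell list had 2 higher and 2 lower with ShK-223 and 3 higher with PAP-1, the CA1 list had 1 higher with ShK-223 and 2 with PAP-1, and the CA2, CA3 and mossy cell list had 1 higher and 1 lower with ShK-223 and 2 higher with PAP-1. Over all genes 2.5% were higher at that p with ShK-223 and 6.78% with PAP-1. The shares lower at that p are not given here, so nothing is read from the counts of lower markers. The median log2 fold change of ShK-223 against Control was 0.14 for the granule cell list, 0.42 for the CA1 list and 0.24 for the CA2, CA3 and mossy cell list. For PAP-1 it was 0.11, 0.84 and 0.53 over the same 3 lists. Without Control 2 these medians were 0.16, 0.27 and 0.025 for ShK-223 and 0.37, 0.69 and 0.37 for PAP-1. Without overlap against Control, 2 of 12 granule cell, 3 of 8 CA1 and none of 13 CA2, CA3 and mossy cell markers were higher with ShK-223. With PAP-1 the counts were 2, 4 and none. Over all genes, 5.25% were higher without overlap with ShK-223 and 9.06% with PAP-1. Of the 10 cortical markers, 3 were higher than Control without overlap with ShK-223 and none lower, with a median log2 fold change of 0.48. With PAP-1 none of them was higher and 1 was lower, with a median of -0.08. Higher levels than in Control were thus not confined to hippocampal lists with ShK-223.

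Rgs14 was at 47.5 to 55.6 CPM in ShK-223 and 51.6 to 64.7 CPM in PAP-1, at 0.757 to 19.5 CPM in PBS, and at 49.0, 13.8 and 55.2 CPM in Control. Its low libraries were thus PBS and Control 2, those with cerebellar transcript, and in Control 1 and 3 it stood beside the blockers. For C1ql2 and Fibcd1, Control 1 and 3 lay below the blockers, as Control 2 and PBS did. Such a gap to Control was not particular to these genes. Of 12 markers of forebrain excitatory neurons in general, 2 were higher than Control without overlap with each blocker. None was lower without overlap with ShK-223 and 1 was with PAP-1. Over all genes, 5.25% were higher without overlap with ShK-223 and 9.06% with PAP-1, as given above. Fibcd1 was at 4.47 to 7.50 CPM in Control and at 1.84 to 3.51 CPM in PBS, without overlap. The part of tissue content in these levels was not tested. Mpped1, of the CA1 list, was also higher in all 6 blocker libraries, at 196 to 267 CPM, than in Control, at 131, 76.4 and 178 CPM. Wfs1, an endoplasmic reticulum protein of CA1 cells, was at 509, 95.4 and 139 CPM in ShK-223, 790.2, 189 and 283 CPM in PAP-1, and 99.6, 63.8 and 88.0 CPM in PBS and 255, 219.7 and 177 CPM in Control, with no gap between blockers and Control.

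**Figure D4:**
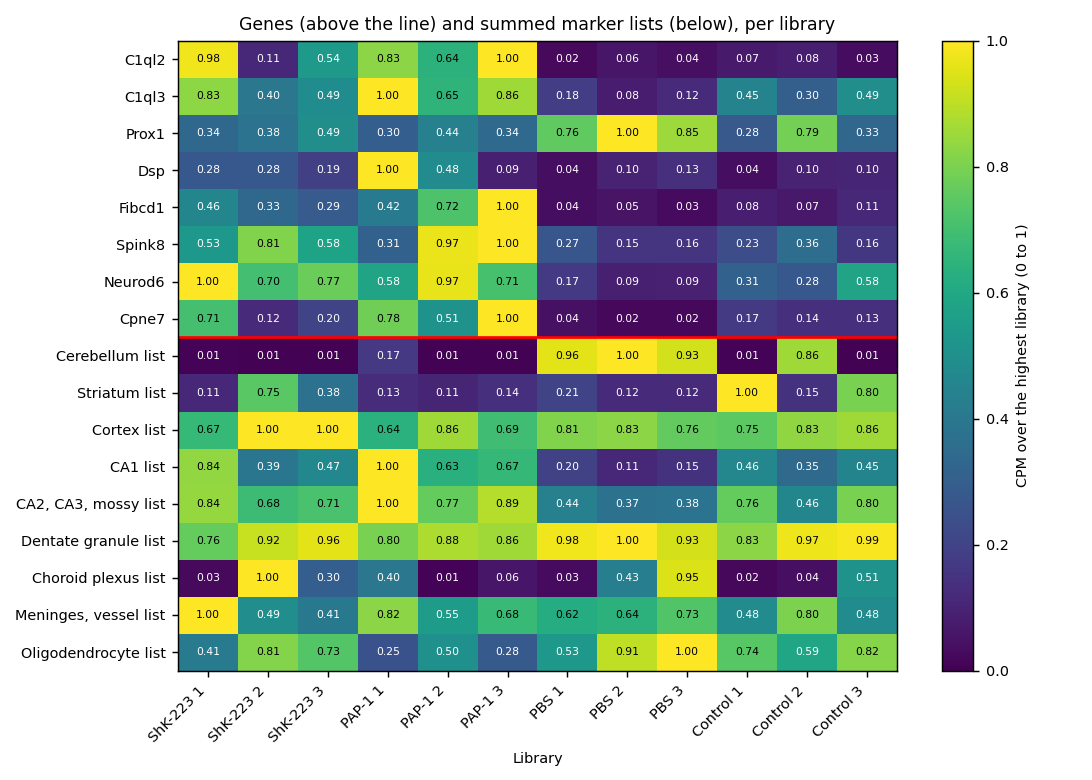
Levels of the 8 genes (above the line) and summed levels of 9 marker lists (below it) in the 12 libraries, each row as CPM over that of its highest library. The cerebellum row is high in the 3 PBS libraries and Control 2, and in the Fibcd1 row the 6 blocker libraries are the highest.

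Partners and relatives of the 8 genes behaved unevenly. Adgrb3, the adhesion receptor that C1q-like proteins bind, was at 98.3 to 125.7 CPM in all 6 blocker libraries and 111.5 to 137.5 CPM in all PBS and Control libraries. Of 11 binding partners and C1q-like or cerebellin relatives, 5 were higher and 2 lower with ShK-223 against PBS, and 4 higher and 1 lower with PAP-1, shares to be read against the same 18.8% and 20.3%, and 21.1% and 22.6%, of all genes. None passed against Control in edgeR, where an unadjusted p under 0.05 was reached by 2 with ShK-223, both lower, and by 3 with PAP-1, of which 2 were higher. Over all genes 2.5% were higher at that p with ShK-223 and 6.78% with PAP-1. The shares lower are not given here, so nothing is read from these counts. Cbln1, a cerebellin that cerebellar granule cells secrete, was lower by 6.03 on the log2 scale with ShK-223 against PBS. In Control it was at 6.55, 509 and 5.26 CPM, high only in Control 2. Of 9 desmosomal genes, 4 were higher and 2 lower with ShK-223 against PBS and 6 higher and 2 lower with PAP-1. Dsc3, a desmosomal cadherin, was at 10.0, 0.28 and 0.536 CPM in ShK-223 and 16.4, 5.60 and 5.81 CPM in PAP-1, against 0.0 to 0.138 CPM in PBS and 0.389 to 1.80 CPM in Control. Among 14 paralogs, Neurod1, a factor of cerebellar and dentate granule cells, was lower against PBS by 4.37 (ShK-223) and 3.19 (PAP-1) on the log2 scale. Cpne6 was higher against PBS by 2.23 and 2.87. Neurod1 was at 266 to 305 CPM in PBS, and at 10.2, 238 and 9.01 CPM in Control, high only in Control 2. The part of cerebellar tissue in the Cbln1 and Neurod1 levels was not tested.

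On a scale that allows levels of different genes to be compared, CPM per kilobase of exon, Neurod6 led over the 12 libraries with a mean of 22.6. It was followed by Cpne7 at 17.9, C1ql3 at 8.04, C1ql2 at 4.54, Prox1 at 4.47, Fibcd1 at 4.21, Spink8 at 1.55 and Dsp at 0.534. The order changed with the group. In PAP-1, Cpne7 was highest at 42.6 and Neurod6 second at 32.7, while in PBS Prox1 was highest at 7.42 and C1ql2, at 0.518, Fibcd1, at 0.556, and Dsp, at 0.205, lay lowest. The fold between the highest and the lowest library was 49.7 for Cpne7, 40.3 for C1ql2, 36.1 for Fibcd1 and 27.6 for Dsp, and 3.58 for Prox1.

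Across the 12 libraries the log2 levels of C1ql2 and Fibcd1 had a Pearson r of 0.89, and those of C1ql3 and Cpne7 one of 0.97. Prox1 had a negative r with all 7 others, from -0.88 with C1ql3 to -0.32 with Dsp. Over the 8 libraries without PBS and Control 2, r was 0.85 for C1ql2 with Fibcd1 and 0.96 for C1ql3 with Cpne7, and Prox1 had r between -0.26 and 0.65. These values are descriptions over few libraries that share their groups and tissue content. The genes outside the set whose level was most like the mean of the 8 were Tenm2, Sobp and Fads3 over 12 libraries, with r of 0.965, 0.963 and 0.962. Over 8 libraries they were Ppm1e, Sobp and Ppp1r14c, with r of 0.995, 0.982 and 0.980. Sobp and Tenm2 were among the 10 most alike in both. Taken singly over 12 libraries, the nearest gene was Crtac1 for C1ql3 (r = 0.994), Nsf for Fibcd1 (0.967), Rab3c for C1ql2 (0.954) and Extl2 for Prox1 (0.989). It was Btbd9 for Neurod6 (0.989), Slc6a7 for Cpne7 (0.982), Cldn1 for Dsp (0.927) and Bzw1 for Spink8 (0.924). Cldn1, like Dsp, was highest in PAP-1 1.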

How the data were processed

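Brain RNA of 12 mice was sequenced, and the data are raw read counts per gene in a single table, as the authors deposited it. The submitters' processing notes name STAR 2.7.11a, GRCm38, R 4.3.2 and DESeq2 1.40.2. No source used here gives the counter, its strand setting or the annotation. Columns were matched to samples by name, and groups come from the labels. Replicate numbers follow sample order and pair nothing. Each library is a mouse of its own, per the labels.

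From these counts, CPM on TMM-scaled totals and edgeR 4.0.16 quasi-likelihood tests (R 4.3.3, filterByExpr, group as the only term, all 12 libraries) were computed. P-values were adjusted by Benjamini-Hochberg over 15061 genes within each of 6 comparisons. SE is the log2 fold change over the root of the F value. DESeq2 1.42.0 served as an alternative. The fit was tested on simulated data. Gene coordinates and exon lengths are from GENCODE on GRCm38, and start sites from RefSeq (GRCm38.p6). The members and the lists were chosen with earlier results of these data known. From each list, up to 4 passing genes with the largest change could be named, plus the 10 genes most like the mean of the members.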

Additional observations from a re-analysis of the deposited data

How the results depend on the processing

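For the 4 comparisons of a blocker with PBS or Control, C1ql2, Fibcd1, Spink8, Cpne7, Dsp, Neurod6 and C1ql3 kept their direction under every alternative run: RLE scaling, DESeq2, no filter on low counts, a batch term, a fit with the other groups dropped, each library left out, and Control 2 with PAP-1 1 left out. How many of the 8 passed did not hold as well. DESeq2 called 2 for ShK-223 (0.0483% of all genes it tested) and 4 for PAP-1 (2.58%) against Control, and 4 for PBS against Control. With no filter, 1 (Fibcd1) passed for PAP-1 against Control. With a batch term, 0 passed for ShK-223 against PBS and 0 for PBS against Control, and a fit of those 2 groups alone left 0 in that comparison. Without Control 2 and PAP-1 1, 1 passed for PAP-1 against Control and 5 for PBS against Control. With single libraries left out, the number passing ran from 5 to 7 for ShK-223 and 6 to 8 for PAP-1 against PBS, 0 to 0 and 0 to 1 against Control, 0 to 5 for PBS against Control, and was 0 throughout for PAP-1 against ShK-223. Of all genes, a batch term left 4 in place of 5896 for ShK-223 against PBS, 2752 in place of 6589 for PAP-1, and 2 in place of 756 for PBS against Control, where leaving out Control 2 gave 6721 and leaving out Control 1 gave 0. Where no number or share of all genes stands beside a count of the 8, nothing is read from that count.

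Some log2 fold changes near 0 changed sign. Prox1 against Control was 0.0093 for ShK-223 with a batch term, 0.41 for ShK-223 and 0.35 for PAP-1 without Control 2 and PAP-1 1, and -0.47 to 0.41 and -0.64 to 0.24 with single libraries left out. For PAP-1 against ShK-223 a batch term gave -0.19 for Spink8 and 0.042 for Neurod6, Neurod6 was 0.02 without Control 2 and PAP-1 1, and ran from -0.35 to 0.031 with single libraries left out. Dsp in PBS against Control ran from -0.25 to 0.54. The causes were not tested. No paired analysis was possible because the replicate numbers only follow sample order. Intervals rest on 3 libraries a group, and Spink8 and the low C1ql2 values on few reads.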
